A study of Mus musculus with 6 samples.

Results

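The 41 genes described here are the enzymes, transporters and regulatory kinases of glycolysis and the citric acid cycle, picked by mouse gene symbol from the 50600 genes in the count tables. Of them, 21 belong to glycolysis, counted here as glucose and lactate transporters, the enzymes between glucose and lactate, and the kinase Pfkfb3. A further 11 are citric acid cycle enzymes. The other 9 are the pyruvate dehydrogenase complex and its kinase Pdk1, pyruvate carboxylase Pcx, the carboxykinase Pck2, and the cytosolic enzymes Idh1 and Mdh1. All 41 were found in the tables, and all 41 passed the filter on low counts.

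The RNA came from primary cortical thymic epithelial cells (cTECs), the stromal cells of the thymic cortex in which immature T cells are first tested for useful receptors. Psmb11 is the gene of β5t, the catalytic subunit that sets the proteasome of these cells apart. The KO group was Psmb11-/- (strain B6.B6CB-Psmb11tm1Smta, 3 libraries, replicates A to C), and the WT group was Psmb11+/+ (given under the same strain name, 3 libraries, replicates A to C). Both groups were thymus cells of mice 8 to 10 weeks old, and the data are polyadenylated RNA sequenced with a strand-marking kit. The labels do not say how the cells were isolated, nor whether each replicate was a separate mouse or a pool of mice, so each p-value measures the spread between these samples, which may be technical.

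Glycolysis splits glucose into pyruvate in the cytosol, first spending and then regaining ATP, and lactate dehydrogenase can turn the pyruvate into lactate. Otherwise pyruvate enters mitochondria, where pyruvate dehydrogenase makes the acetyl-CoA that the citric acid cycle oxidises to feed the respiratory chain. Many glycolytic steps are served by several isoenzymes encoded by different genes, some widespread and some typical of muscle, brain or fast-growing cells.

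Gene counts per library lay between 34265035 and 36713388 in KO and between 34660349 and 39224292 in WT. Psmb11 had 67, 36 and 41 counts in KO and 8293, 9297 and 10027 counts in WT, which fits the labels. Levels are given as CPM, counts relative to library size with TMM scaling, for comparing libraries, and as TPM, which also corrects for transcript length, for comparing genes. Across the 16938 genes tested, 3899 (23.0%) were called different between KO and WT by the edgeR quasi-likelihood test at an adjusted p below 0.05. The libraries of each genotype also differed in cell type markers. The summed level of 14 cTEC markers, Psmb11 among them, was 6779 to 7522 CPM in KO against 10541 to 10717 CPM in WT, and 12 of the 14 were called lower. The sum of 10 medullary epithelial markers was 6107 to 6455 CPM in KO against 4794 to 5366 CPM in WT, with 9 called higher. The sum for fibroblasts and pericytes was 1270 to 1362 CPM in KO against 877 to 987 CPM in WT (8 of 10 higher), and that for dendritic cells and macrophages was 64.5 to 72.7 CPM in KO against 33.7 to 37.2 CPM in WT (7 of 8 tested higher). The 12 thymocyte markers summed to 41.0 to 82.6 CPM in KO against 41.5 to 51.7 CPM in WT, and the 7 endothelial markers to 15.2 to 46.0 CPM in KO against 12.8 to 34.8 CPM in WT, both highest in KO replicate A. The 6 erythroid markers summed to at most 1.38 CPM in KO against 1.56 CPM in WT. No marker in these lists was at 0 in all 6 libraries. In bulk RNA, fewer cells of a type and less RNA per cell cannot be told apart, and the part of these marker differences in the results below was not tested.

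Among the 41 genes, 18 were called lower in KO and 5 higher, and 18 were not called. Over all genes tested, 10.7% were called lower and 12.3% higher. The lower calls over all genes numbered 1820, and 1152 without WT replicate C. Among the more abundant genes, those with a mean of at least 5 CPM, the shares were 15.3% lower and 12.4% higher. The changes were small. The median fold of the 23 called members was 1.16, the largest was 1.42 and the smallest 1.07, against a median fold of 1.23 for all called genes. The CPM ranges of the 3 KO and 3 WT libraries were fully separate for 23 members with KO lower and for 5 with KO higher, while over all genes tested the shares were 20.0% and 19.2%. The median log2 fold change of the members was -0.11, and that of all genes tested lay within 0.01 of 0.

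**Figure D1:**
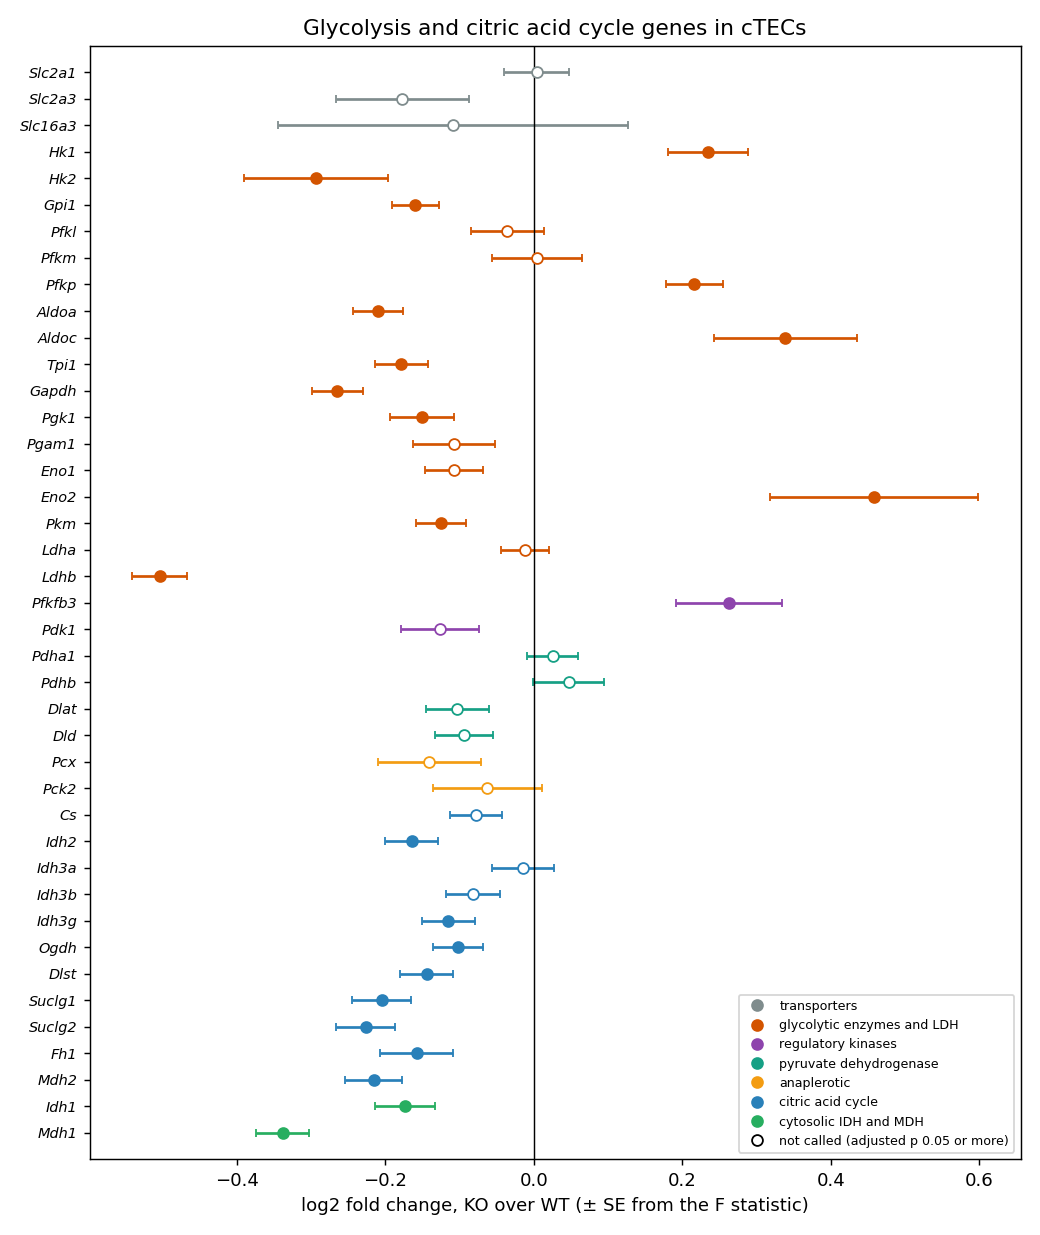
Log2 fold change (KO over WT) of each of the 41 genes with its SE, in pathway order from transporters at the top to the cytosolic enzymes at the bottom, with filled points for genes called at an adjusted p below 0.05. All 11 citric acid cycle genes lie left of 0, while the glycolytic genes spread from -0.50 (Ldhb) to 0.46 (Eno2).

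The promoter windows of 6 of these genes are shown because they carry the contrasts described here: both lactate dehydrogenase genes, both malate dehydrogenase genes, the most abundant member (Gapdh) and the phosphofructokinase that rose (Pfkp). Each window runs from 250 bases before to 50 bases after a transcript start of the gene in RefSeq (GRCm38.p6). It reads 5′ to 3′ along the gene's strand. This start need not be the outer end of the gene, and for Ldha and Gapdh the window shown lies within the gene. Capitals mark the core of the hypoxia response element, the letters ACGTG or GCGTG on either strand. The E-box CACGTG contains ACGTG on both strands, so each E-box counts as 2 core matches.
Ldha, chr7:46845554-46845853, plus strand: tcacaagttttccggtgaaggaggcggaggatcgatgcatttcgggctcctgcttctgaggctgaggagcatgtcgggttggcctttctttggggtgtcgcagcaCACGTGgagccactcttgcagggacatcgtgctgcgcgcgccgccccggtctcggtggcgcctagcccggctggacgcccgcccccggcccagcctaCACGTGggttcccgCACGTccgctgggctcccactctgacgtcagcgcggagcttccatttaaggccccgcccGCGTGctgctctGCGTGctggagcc
Ldhb, chr6:142507908-142508207, minus strand: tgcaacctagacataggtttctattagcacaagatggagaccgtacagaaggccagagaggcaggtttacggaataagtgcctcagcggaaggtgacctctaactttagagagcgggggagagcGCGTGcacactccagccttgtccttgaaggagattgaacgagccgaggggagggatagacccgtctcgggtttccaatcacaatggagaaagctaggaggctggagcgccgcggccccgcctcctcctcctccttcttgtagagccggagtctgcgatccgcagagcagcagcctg
Mdh1, chr11:21571885-21572184, minus strand: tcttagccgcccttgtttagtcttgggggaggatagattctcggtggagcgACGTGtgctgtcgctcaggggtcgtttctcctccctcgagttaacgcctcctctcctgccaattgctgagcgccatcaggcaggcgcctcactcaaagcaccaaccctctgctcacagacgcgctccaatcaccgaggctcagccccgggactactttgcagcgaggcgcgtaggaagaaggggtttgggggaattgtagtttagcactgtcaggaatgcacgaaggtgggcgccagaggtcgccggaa
Mdh2, chr5:135778399-135778698, plus strand: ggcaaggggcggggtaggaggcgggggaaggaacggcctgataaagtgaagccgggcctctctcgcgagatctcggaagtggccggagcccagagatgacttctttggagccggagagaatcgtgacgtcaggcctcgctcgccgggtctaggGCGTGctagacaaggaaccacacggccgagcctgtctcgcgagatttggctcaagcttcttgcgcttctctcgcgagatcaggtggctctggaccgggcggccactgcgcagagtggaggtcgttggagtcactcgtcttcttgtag
Gapdh, chr6:125165724-125166023, minus strand: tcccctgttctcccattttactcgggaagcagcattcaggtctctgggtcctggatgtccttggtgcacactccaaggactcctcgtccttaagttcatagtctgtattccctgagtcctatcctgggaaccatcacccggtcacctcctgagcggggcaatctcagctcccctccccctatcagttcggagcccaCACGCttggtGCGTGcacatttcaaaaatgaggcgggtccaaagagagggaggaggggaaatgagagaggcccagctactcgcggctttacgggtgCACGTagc
Pfkp, chr13:6648722-6649021, minus strand: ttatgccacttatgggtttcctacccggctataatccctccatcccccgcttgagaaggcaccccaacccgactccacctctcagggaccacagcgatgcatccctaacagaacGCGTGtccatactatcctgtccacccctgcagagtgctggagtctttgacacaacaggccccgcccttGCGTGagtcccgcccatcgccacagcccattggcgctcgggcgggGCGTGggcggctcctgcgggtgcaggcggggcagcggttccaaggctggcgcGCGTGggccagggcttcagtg
The first of 2 Ldha windows held 7 core matches, 4 of them within 2 E-boxes, and the Ldhb window held 1. Mdh1 and Mdh2 held 1 each, Gapdh 3 and Pfkp 4. Windows were found for 39 of the 41 genes, all but Slc2a3 and Idh3a. At least 1 core match was present in 17 of 20 glycolysis genes and 6 of 10 citric acid cycle genes. The share was 46.7% of all 27025 genes with a window and 43.8% of all 32851 windows. A gene counted if any of its windows held a match, and some members had several windows (Ogdh 6, Pfkm 4). An E-box was present in 3 of the 20 glycolysis genes (Pfkm, Ldha and Pfkfb3), in 1 of the 10 citric acid cycle genes (Ogdh) and in 8.09% of all genes. The core AAGGTCA bound by estrogen-related receptors was found in Tpi1, Eno1 and Ogdh and in 5.38% of all genes. These are matches of letters. The hypoxia core and the E-box were each found in genes called higher, called lower and not called, and each was absent from genes of all these kinds. Of the 3 genes with the estrogen-related receptor core, Tpi1 and Ogdh were called lower and Eno1 was not called.

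At the entry to glycolysis, none of the 3 transporters among the members was called. Slc2a4, a further glucose transporter outside the members, was called lower, as described below. By TPM it was above Slc2a1, at 93.9 against 43.9 in KO and 114 against 43.4 in WT. Slc2a1, the widespread basal glucose transporter, had 69.8, 72.5 and 66.9 CPM in KO against 71.1, 71.2 and 66.4 CPM in WT. The KO and WT values of Slc2a1 overlapped throughout, with a log2 fold change of 0.00 ± 0.04 (SE; edgeR adjusted p = 0.963). Slc2a3, a high-affinity glucose transporter, had 20.1 ± 2.02 CPM in KO against 22.8 ± 2.60 CPM in WT (SD, n = 3 each; edgeR adjusted p = 0.184). Slc16a3, a lactate exporter, was the least abundant member at 1.83 TPM in KO and 2.21 TPM in WT and was not called (edgeR adjusted p = 0.79). Its level lay between 1.93 and 2.49 CPM in KO and between 1.87 and 3.45 CPM in WT.

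The 9 enzymes of the preparatory phase, from glucose to triose phosphates, had calls in both directions, 3 higher and 4 lower. Shares over all genes tested were 12.3% higher and 10.7% lower. In the hexokinases, which trap glucose as glucose 6-phosphate, the isoenzymes moved in opposite directions. Hk1, the main hexokinase here, had 124, 146 and 142 CPM in KO against 113, 117 and 119.9 CPM in WT, a log2 fold change of 0.23 ± 0.05 (edgeR adjusted p = 0.00821). Hk2, the isoenzyme typical of muscle and of proliferating cells, had 12.7, 12.5 and 11.6 CPM in KO against 14.6, 17.2 and 13.4 CPM in WT, a log2 fold change of -0.29 ± 0.10 (edgeR adjusted p = 0.0468). Every KO library was above every WT library for Hk1 and below every WT library for Hk2. The Hk2 call was lost without any of KO replicates A, B or C or WT replicates A or B (log2 fold changes between -0.32 and -0.19, edgeR adjusted p between 0.0572 and 0.206), and it was kept without WT replicate C.

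Gpi1, which isomerises glucose 6-phosphate to fructose 6-phosphate, had 270.4, 275 and 278 CPM in KO against 306, 307 and 305 CPM in WT. The groups were well apart and the change was small, 1.12-fold lower in KO (log2 fold change -0.16 ± 0.03, edgeR adjusted p = 0.00347). Of the 3 phosphofructokinases, which catalyse the committed step, the platelet form Pfkp rose, with 85.6, 88.1 and 89.2 CPM in KO against 77.7, 73.1 and 75.4 CPM in WT. All KO libraries exceeded all WT libraries, by 1.16-fold on average (log2 fold change 0.22 ± 0.04, edgeR adjusted p = 0.00157). Pfkp overlaps Pitrm1 on the opposite strand, which had on average 3616 counts per library in KO and 4264 in WT. The liver form Pfkl had 94.0 ± 6.83 CPM in KO against 96.3 ± 1.61 CPM in WT, and the muscle form Pfkm 35.2 ± 2.76 CPM in KO against 35.1 ± 1.45 CPM in WT (n = 3 each), and neither was called (edgeR adjusted p = 0.657 for Pfkl and 0.97 for Pfkm). Pfkfb3, whose product makes fructose 2,6-bisphosphate, the activator of phosphofructokinase, had 66.6, 53.6 and 60.5 CPM in KO against 49.96, 47.1 and 53.5 CPM in WT. It was 1.2-fold higher in KO (log2 fold change 0.26 ± 0.07, edgeR adjusted p = 0.0182), with KO replicate B only just above WT replicate C. Its call was lost without KO replicate A or C or WT replicate A or B (log2 fold changes 0.18 to 0.26, edgeR adjusted p between 0.0561 and 0.0955). Pfkfb3 is overlapped on the opposite strand by the antisense gene Gm10851, with on average 440.3 counts per library in KO and 274 in WT.

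Aldolase, which splits fructose 1,6-bisphosphate, also had isoenzymes that moved in opposite directions, but here the main form fell and the minor form rose, the reverse of the hexokinases. Aldoa, the muscle-type aldolase and the second most abundant member, had 526, 509 and 529 CPM in KO against 615, 591 and 602 CPM in WT, a log2 fold change of -0.21 ± 0.03 (edgeR adjusted p = 8.80e-04). Aldoc, the brain-type aldolase, had 10.4, 10.7 and 11.6 CPM in KO against 9.35, 8.69 and 7.91 CPM in WT, a log2 fold change of 0.34 ± 0.10 (edgeR adjusted p = 0.0238). The groups did not overlap for either gene, in opposite directions. The Aldoc call was lost without WT replicate B, WT replicate C or KO replicate C (log2 fold changes 0.28 to 0.34, edgeR adjusted p between 0.0718 and 0.11). Tpi1, which interconverts the triose phosphates, had 129, 127 and 131 CPM in KO against 149.6, 148 and 140.4 CPM in WT, 1.13-fold lower in KO (edgeR adjusted p = 0.00396).

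In the payoff phase, from glyceraldehyde 3-phosphate to pyruvate, 3 of 6 enzymes were called lower and 1 higher, beside 10.7% lower and 12.3% higher over all genes. Gapdh, the dehydrogenase that forms NADH and a gene often used as a loading reference, had 449.7, 434 and 430.0 CPM in KO against 518, 528 and 533 CPM in WT. It was the most abundant member (979 TPM in KO and 1144 TPM in WT), and it fell 1.2-fold (log2 fold change -0.26 ± 0.03, edgeR adjusted p = 1.74e-04). Pgk1, the first ATP-forming enzyme of the pathway, had 42.1, 41.3 and 41.0 CPM in KO against 47.2, 44.1 and 46.7 CPM in WT (log2 fold change -0.15 ± 0.04, edgeR adjusted p = 0.0262). Pkm, the pyruvate kinase, had 299, 306 and 313 CPM in KO against 338, 329 and 333 CPM in WT (log2 fold change -0.13 ± 0.03, edgeR adjusted p = 0.0178). For all 3 genes every KO library was below every WT library. The Pgk1 call was lost without KO replicate B, KO replicate C, WT replicate A or WT replicate C (log2 fold changes -0.15 to -0.13, edgeR adjusted p between 0.0618 and 0.0986). The Pkm call was lost without KO replicate A or WT replicate A or C (log2 fold changes -0.13 to -0.11, edgeR adjusted p between 0.0506 and 0.0672). The counts are per gene, so the splice forms M1 and M2 of Pkm were not separated.

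Of the enolases among the members, which form phosphoenolpyruvate, the less abundant form was called and the main form was not. Eno3, a further enolase outside the members, was not called (edgeR adjusted p = 0.828). By TPM it was above Eno2, at 21.3 against 5.81 in KO and 22.7 against 3.17 in WT. Eno1, the widespread form, had 228 ± 7.26 CPM in KO against 245 ± 9.54 CPM in WT (n = 3 each). It was lower in every KO library than in every WT library but was not called (log2 fold change -0.11 ± 0.04, edgeR adjusted p = 0.0698), and it was called without WT replicate B (log2 fold change -0.14, edgeR adjusted p = 0.0413). Eno2, the neuronal form, had 5.58, 4.37 and 4.77 CPM in KO against 3.66, 3.26 and 3.79 CPM in WT, a log2 fold change of 0.46 ± 0.14 (edgeR adjusted p = 0.0333). This was the largest rise among the 41 genes, at one of the lowest levels, and its call was lost without KO replicate A or C or any of WT replicates A, B or C (log2 fold changes 0.35 to 0.50, edgeR adjusted p between 0.0715 and 0.128). Pgam1, the phosphoglycerate mutase between Pgk1 and enolase, had 36.1 ± 1.22 CPM in KO against 38.9 ± 2.61 CPM in WT and was not called (n = 3 each; edgeR adjusted p = 0.192).

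The largest change among the 41 genes was in lactate dehydrogenase, and it was called in 1 of its 2 subunits. Ldhb, the heart-type subunit, had 148, 138 and 137 CPM in KO against 199, 201 and 199 CPM in WT. Every KO library was far below the narrow WT range, a log2 fold change of -0.50 ± 0.04, or 1.42-fold lower (edgeR adjusted p = 4.62e-06). Ldha, the muscle-type subunit, had 240.1, 242 and 238 CPM in KO against 246, 238 and 242 CPM in WT, and the groups overlapped (log2 fold change -0.01 ± 0.03, edgeR adjusted p = 0.836). Ldhb fell under all 16 alternative ways of processing the data, with log2 fold changes from -0.54 to -0.45, and Ldha stayed between -0.02 and 0.03 and was called under none of them. Ldhb (ENSMUSG00000030246.11) lies on the minus strand of chromosome 6, at 142490249 to 142507957 in GRCm38.

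**Figure D2:**
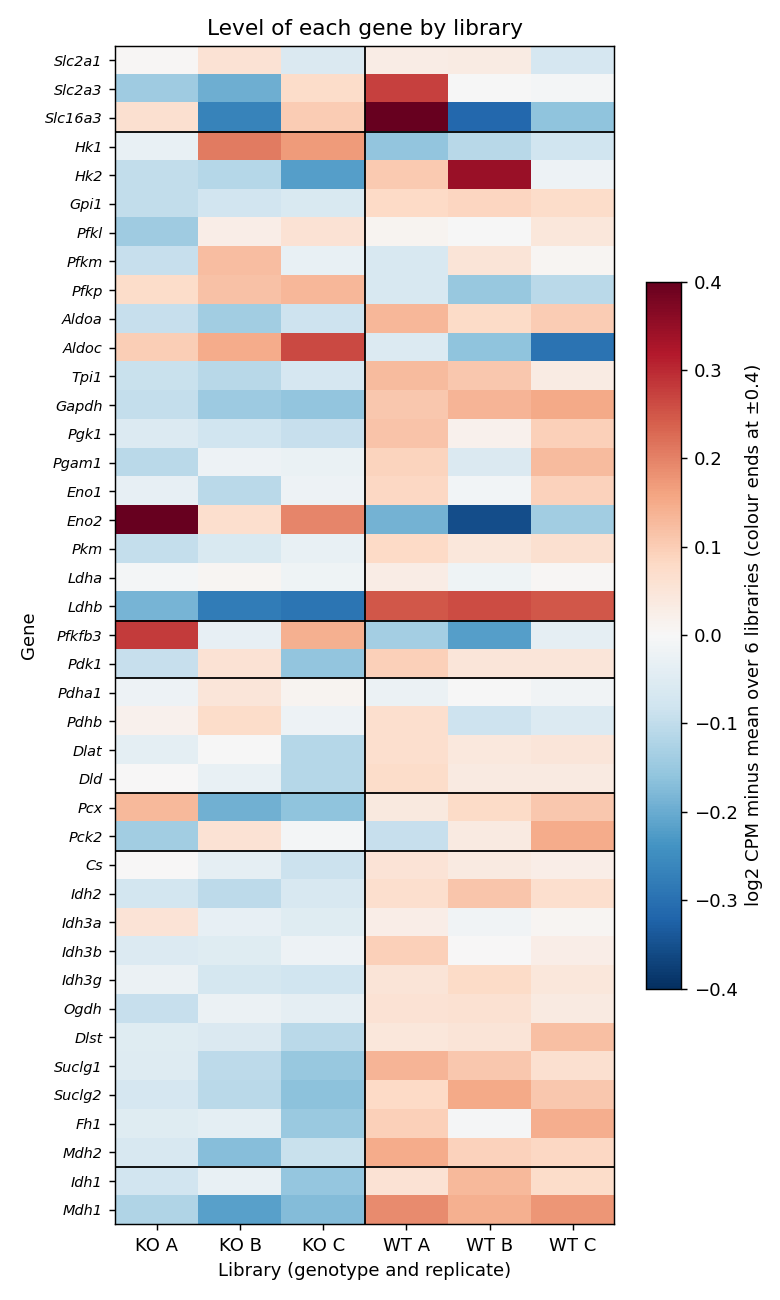
Log2 CPM of each of the 41 genes in each library, minus its mean over the 6 libraries, with KO libraries left of the vertical line and horizontal lines between groups of genes. Ldhb and Mdh1 show the clearest split between the genotypes, and the citric acid cycle rows are blue in KO and red in WT with few exceptions.

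Because TPM corrects for length, the isoenzymes of a step can be set side by side as shares of their family's summed TPM. Families here hold only genes among the 41. With 3 libraries a side the smallest p of an exact permutation test is 0.1, so these shares are given as descriptions. Ldha made up 54.9%, 57.2% and 56.6% of lactate dehydrogenase TPM in KO and 48.3%, 47.4% and 48.3% in WT. By TPM the more abundant subunit was therefore Ldha in every KO library and, by a narrow margin, Ldhb in every WT library. Pfkp made up 42.7 ± 0.956% of phosphofructokinase TPM in KO and 39.6 ± 0.939% in WT, while the share of Pfkl was 39.9 ± 1.22% in KO and 42.1 ± 0.0966% in WT (SD, n = 3 each). By TPM the leading phosphofructokinase was therefore Pfkp in all KO libraries and Pfkl in all WT libraries. Both orders rest on the length correction. In CPM, which has none, Ldha was above Ldhb and Pfkl above Pfkp in every library of both genotypes. Aldoc and Eno2 had larger shares in KO. Aldoc made up 1.64 ± 0.123% of aldolase TPM in KO and 1.08 ± 0.0282% in WT. Eno2 made up 1.61 ± 0.188% of the TPM of Eno1 and Eno2 in KO and 0.854 ± 0.0884% in WT (n = 3 each). None of these 5 shares overlapped between the genotypes. The level of Eno2 differed more in TPM, 5.81 in KO and 3.17 in WT, than in CPM, 4.90 in KO and 3.57 in WT. Hk1 made up 92.1 ± 2.24% of the TPM of Hk1 and Hk2 in KO and 88.7 ± 2.15% in WT. Slc2a1 made up 79.8 ± 3.54% of the TPM of Slc2a1 and Slc2a3 in KO and 77.0 ± 1.26% in WT. The Hk1 and Slc2a1 shares overlapped between the genotypes. Slc2a4, a glucose transporter outside the 41 genes, was not counted. It had 93.9 ± 1.26 TPM in KO against 114 ± 5.29 TPM in WT (n = 3 each). Eno3, an enolase outside the 41 genes, was not counted either. Its level was 21.3 ± 1.41 TPM in KO against 22.7 ± 3.49 TPM in WT (n = 3 each).

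**Figure D3:**
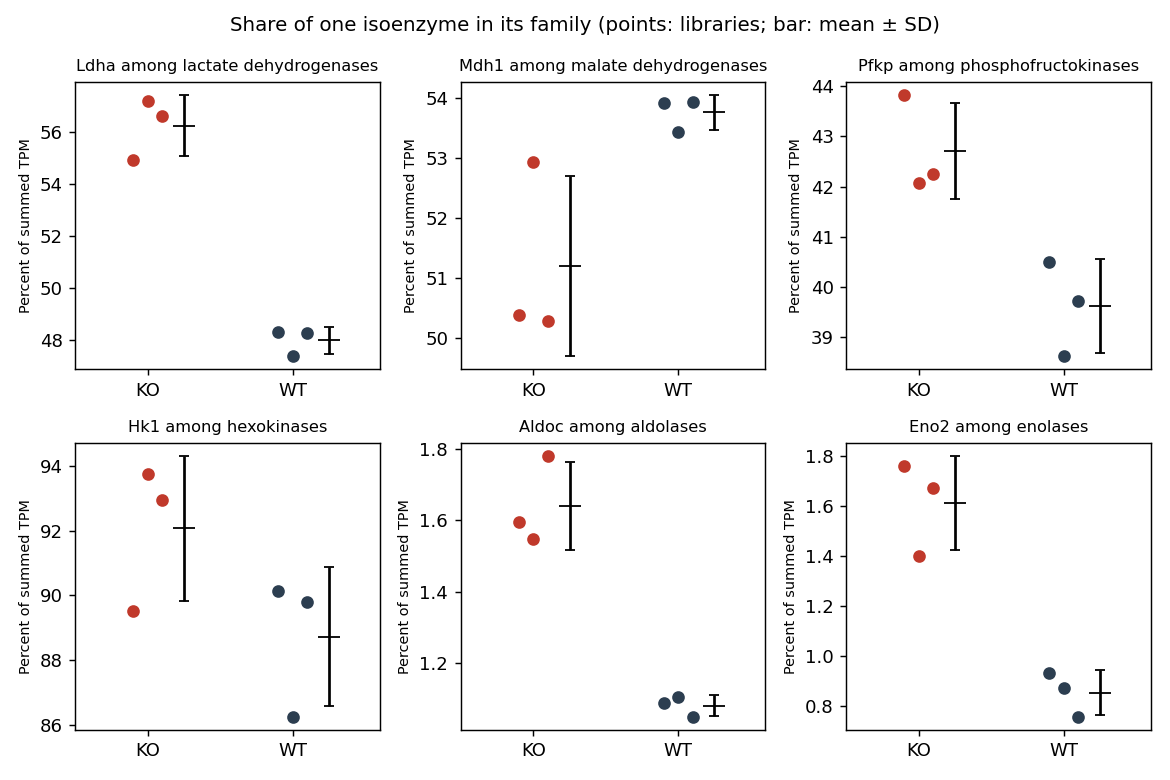
Share of an isoenzyme in the summed TPM of its family, in percent, for each library (points) with mean ± SD (bars), KO left of WT in each panel; the axes do not start at 0. The Ldha share was 54.9% to 57.2% in KO and 47.4% to 48.3% in WT, and of the 6 panels only that of Hk1 shows overlapping groups.

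Pyruvate dehydrogenase, the gate between glycolysis and the citric acid cycle, showed no called change. The E1 subunit genes Pdha1 and Pdhb had 137 ± 3.31 and 55.8 ± 1.87 CPM in KO, against 134 ± 1.03 and 54.1 ± 3.02 CPM in WT (n = 3 each). The log2 fold changes were 0.03 ± 0.03 for Pdha1 and 0.05 ± 0.05 for Pdhb, the only positive ones outside glycolysis. Dlat, the E2 subunit, had 50.01, 51.3 and 47.5 CPM in KO against 53.8, 52.9 and 53.1 CPM in WT. Dld, the E3 subunit that the 2-oxoglutarate dehydrogenase complex also uses, had 94.8, 92.8 and 87.7 CPM in KO against 99.7, 97.1 and 97.1 CPM in WT. Dlat and Dld were lower in each KO library than in each WT library without passing the test (edgeR adjusted p = 0.101 for Dlat and 0.106 for Dld). Pdk1, the kinase that switches the complex off, had 54.8, 60.8 and 52.4 CPM in KO against 62.5, 60.4 and 60.5 CPM in WT. It was not called with all libraries (edgeR adjusted p = 0.106) and was called lower without KO replicate B (log2 fold change -0.19, edgeR adjusted p = 0.0146).

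Pcx and Pck2 were not called either. Pcx, pyruvate carboxylase, which makes oxaloacetate from pyruvate, had 87.4, 70.0 and 71.6 CPM in KO against 82.1, 84.3 and 86.1 CPM in WT. KO replicate A stood above the other 2 KO libraries and above all WT libraries, and without it Pcx was called lower (log2 fold change -0.25, edgeR adjusted p = 0.00118), against a log2 fold change of -0.14 ± 0.07 with all libraries (edgeR adjusted p = 0.17). Pck2, the mitochondrial phosphoenolpyruvate carboxykinase, had 23.0 ± 1.59 CPM in KO against 23.9 ± 1.99 CPM in WT (n = 3 each; edgeR adjusted p = 0.597).

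In the citric acid cycle 8 of 11 enzymes were called lower and none higher, and all 11 log2 fold changes were below 0, between -0.23 and -0.01. For 10 of the 11, every KO library was below every WT library. The shares over all genes tested were 10.7% called lower, 12.3% called higher and 20.0% with every KO library below every WT library. The largest changes were in succinyl-CoA ligase, the step that forms GTP or ATP, and in mitochondrial malate dehydrogenase. Suclg1, the alpha subunit shared by both forms of the ligase, had 71.9, 69.4 and 67.2 CPM in KO against 82.0, 80.5 and 78.0 CPM in WT (log2 fold change -0.20 ± 0.04, edgeR adjusted p = 0.003). Suclg2, the GTP-specific beta subunit, had 70.4, 68.4 and 65.9 CPM in KO against 78.0, 82.0 and 79.5 CPM in WT (log2 fold change -0.23 ± 0.04, edgeR adjusted p = 0.00154). Mdh2, which regenerates oxaloacetate and was the most abundant enzyme of the cycle, had 160.1, 149 and 157 CPM in KO against 185, 178 and 177 CPM in WT (log2 fold change -0.22 ± 0.04, edgeR adjusted p = 0.00161). Suclg1, Suclg2 and Mdh2 were 1.15-fold, 1.17-fold and 1.16-fold lower in KO. Sucla2, the ATP-specific beta subunit of the ligase, is outside the members and was not called. It had 66.8 ± 4.64 CPM in KO against 69.3 ± 1.28 CPM in WT (n = 3 each; edgeR adjusted p = 0.486).

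The isocitrate dehydrogenases of the mitochondrion differed among themselves. Idh2, the NADP-dependent form, had 76.9, 75.3 and 77.4 CPM in KO against 84.8, 87.5 and 84.9 CPM in WT (log2 fold change -0.16 ± 0.04, edgeR adjusted p = 0.00566). Of the NAD-dependent enzyme, the regulatory subunit Idh3g had 81.1, 78.6 and 78.0 CPM in KO against 85.4, 87.0 and 85.1 CPM in WT (log2 fold change -0.12 ± 0.04, edgeR adjusted p = 0.035). The catalytic subunit Idh3a had 59.8, 56.3 and 55.7 CPM in KO against 58.6, 57.0 and 57.9 CPM in WT, the only enzyme of the cycle whose groups overlapped (edgeR adjusted p = 0.847). Idh3b, the other regulatory subunit, had 121 ± 1.59 CPM in KO against 128 ± 4.37 CPM in WT (n = 3 each; edgeR adjusted p = 0.131). The Idh3g call was lost without KO replicate B or C or any of WT replicates A, B or C (log2 fold changes -0.12 to -0.11, edgeR adjusted p between 0.078 and 0.115).

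Of the 2-oxoglutarate dehydrogenase complex, Ogdh (E1) had 290.1, 304 and 302 CPM in KO against 322, 322 and 317 CPM in WT, and Dlst (E2) had 155, 154 and 148 CPM in KO against 165, 166 and 174 CPM in WT. Both fell, by 0.10 ± 0.03 for Ogdh and 0.14 ± 0.04 for Dlst on the log2 scale (edgeR adjusted p = 0.0473 for Ogdh and 0.0124 for Dlst). Ogdh was close to the threshold, and its call was lost when any of the 6 libraries, KO replicates A to C and WT replicates A to C, was left out (log2 fold changes -0.12 to -0.08, edgeR adjusted p between 0.0577 and 0.13). The Dlst call was lost without WT replicate C (log2 fold change -0.12, edgeR adjusted p = 0.0718). Fh1, fumarase, had 50.4, 50.7 and 47.1 CPM in KO against 55.7, 51.9 and 57.7 CPM in WT (log2 fold change -0.16 ± 0.05, edgeR adjusted p = 0.0369), and its call was lost without KO replicate C or WT replicate A or C (log2 fold changes -0.15 to -0.12, edgeR adjusted p between 0.103 and 0.161). Cs, citrate synthase, which admits acetyl-CoA to the cycle, had 199, 194 and 188 CPM in KO against 207, 204 and 203 CPM in WT. Its groups were separate by a small margin and it was not called (log2 fold change -0.08 ± 0.03, edgeR adjusted p = 0.132).

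The cytosolic counterparts of 2 mitochondrial enzymes both fell. Mdh1, malate dehydrogenase of the malate-aspartate shuttle, had 208, 195 and 201 CPM in KO against 258, 249.8 and 256 CPM in WT. It was the member with the largest fall after Ldhb, 1.26-fold (log2 fold change -0.34 ± 0.04, edgeR adjusted p = 5.25e-05), and was called under all 16 alternatives with log2 fold changes from -0.36 to -0.31. Idh1, the cytosolic source of NADPH from isocitrate, had 108, 112 and 102 CPM in KO against 119, 125 and 119.9 CPM in WT (log2 fold change -0.17 ± 0.04, edgeR adjusted p = 0.00896). Mdh1 made up 51.2 ± 1.5% of the TPM of both malate dehydrogenases in KO and 53.8 ± 0.286% in WT (n = 3 each), without overlap between the groups.

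Set beside each other, glycolysis had called genes in both directions and the citric acid cycle in 1 direction. Glycolysis had 5 genes higher, 8 lower and 8 not called, and the citric acid cycle 0 higher, 8 lower and 3 not called. Of all genes tested, 12.3% were called higher and 10.7% lower. With a mean of at least 5 CPM, these shares were 12.4% higher and 15.3% lower. The higher glycolysis genes numbered 3 without KO replicate A, WT replicate A or WT replicate C and 2 without WT replicate B or KO replicate C, and the lower ones 5 without WT replicate A. The lower citric acid cycle genes numbered 5 without KO replicate C or WT replicate A and 4 without WT replicate C. With limma on log2(TPM + 1) there were 3 higher and 5 lower glycolysis genes and 3 lower citric acid cycle genes, and with only genes averaging 5 CPM or more tested, 5 lower citric acid cycle genes. The median log2 fold changes were -0.11 for glycolysis and -0.14 for the citric acid cycle. The difference of 0.04 between these medians was about as large as the spread of the same measure between libraries of a genotype (pooled SD 0.0393). This SD describes single libraries, with all 6 kept, and is not the error of a difference between group means. The alternatives were set against the same SD. The difference was above that spread with expected counts (0.082) and with limma on log2(TPM + 1) (0.066). It was also above it without KO replicate B (0.069), WT replicate A (0.071) or KO replicate A (0.047). It was below that spread without KO replicate C (0.00055), WT replicate B (0.0098) or WT replicate C (0.033). The glycolytic values ranged from -0.50 to 0.46 and those of the cycle from -0.23 to -0.01. On the level scale, summed TPM of the 21 glycolysis genes was 3899, 3840 and 3892 in KO and 4265, 4295 and 4298 in WT, a difference in means of -9.54%. Summed TPM of the 11 citric acid cycle genes was 1216, 1184 and 1164 in KO and 1290, 1284 and 1273 in WT, a difference in means of -7.33%. Both sums were lower in every KO library, and the glycolysis sum was carried by Gapdh, Aldoa, Eno1, Pkm and Ldha, which made up 68.0 ± 0.224% of it in KO and 68.2 ± 0.466% in WT (n = 3 each). The ratio of the glycolysis sum to the citric acid cycle sum was 3.21, 3.24 and 3.34 in KO and 3.31, 3.35 and 3.38 in WT. The ratios overlapped, since KO replicate C lay above WT replicate A.

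**Figure D4:**
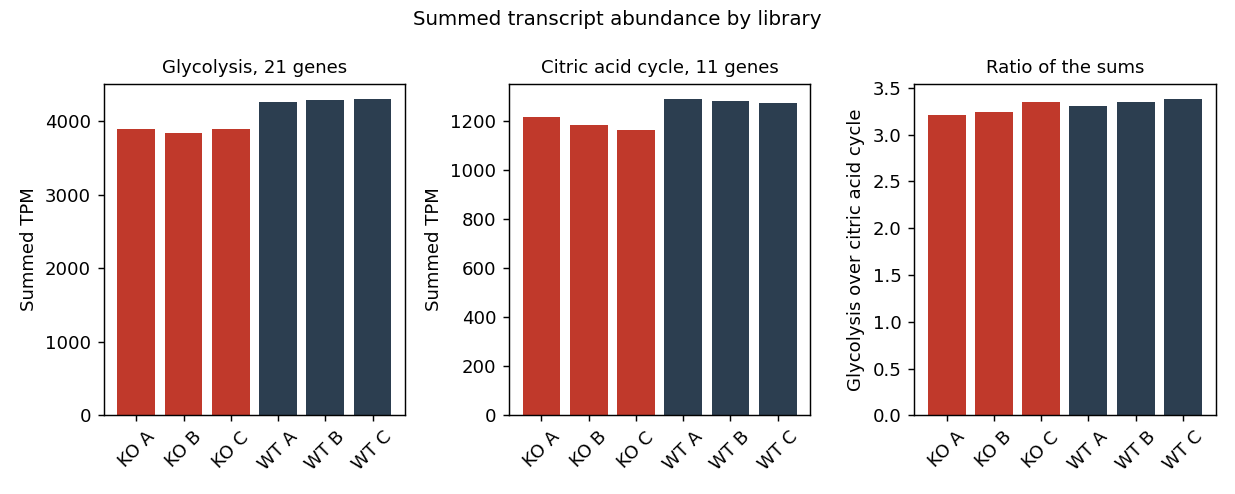
Summed TPM of the glycolysis genes and of the citric acid cycle genes, and the ratio of the sums, as 1 bar per library with KO left of WT. Both sums were lower in each KO library than in each WT library, while the ratio lay between 3.21 and 3.38 in all 6 libraries.

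Levels of some glycolytic genes depend on how reads shared with other loci are treated, and Gapdh, Pgk1, Eno1 and Pgam1 are known to have processed pseudogenes. The read counts used for the test hold reads that map to a single place, and the deposited expected counts also share out reads that map to several. Expected counts were 3.85 times the read counts for Pgam1, 2.09 times for Pgk1, 1.54 times for Eno1, 1.2 times for Gapdh, 1.18 times for Suclg2 and 1.14 times for Pkm, and between 0.858 and 1.01 times for the other 35 genes. The fold changes moved little. With expected counts, Gapdh had a log2 fold change of -0.25 and Pgk1 of -0.16, and Pgam1, the gene with most shared reads, had -0.05 in place of -0.11. Eno2, Idh3g and Ogdh were not called with expected counts (edgeR adjusted p = 0.0608 for Eno2, 0.053 for Idh3g and 0.0712 for Ogdh), and the other 20 called members were. The levels of Pgam1, Pgk1 and Eno1 are uncertain to about these factors.

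**Figure D5:**
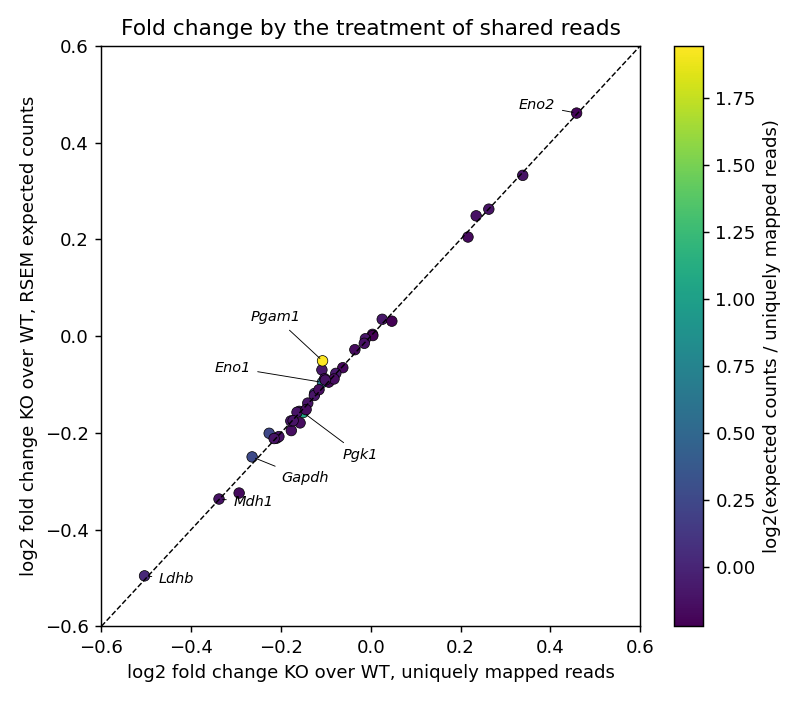
Log2 fold change (KO over WT) of each of the 41 genes from uniquely mapped reads (x axis) and from RSEM expected counts (y axis), coloured by the log2 ratio of expected counts to uniquely mapped reads; the dashed line marks equality. Pgam1, the most affected gene, moves from -0.11 to -0.05, and the others lie close to the line.

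Genes of the same pathways outside the 41 were read from lists drawn up with earlier results of these data known. Of 15 tested further glycolysis genes, 3 were called higher and 4 lower. For comparison with this and the next lists, 12.3% of all genes tested were called higher and 10.7% lower. Slc2a4, the insulin-responsive glucose transporter, was 1.24-fold lower (116 ± 2.06 CPM in KO against 143 ± 9.98 CPM in WT), and Pgam2, the muscle phosphoglycerate mutase, 1.71-fold lower (6.68 ± 1.14 CPM in KO against 11.4 ± 1.0 CPM in WT; n = 3 each). Bpgm, the bisphosphoglycerate mutase, was 1.14-fold lower, while Pfkfb2, a relative of Pfkfb3, was 1.15-fold higher (edgeR adjusted p = 6.25e-04 for Slc2a4, 8.63e-04 for Pgam2, 0.0223 for Bpgm and 0.0251 for Pfkfb2). Pfkfb4, another relative of Pfkfb3, was 1.14-fold lower (edgeR adjusted p = 0.0394). Of 19 further genes of pyruvate handling and the citric acid cycle, 9 were called lower and 1 higher. The lower ones included all 4 subunits of succinate dehydrogenase, the enzyme of the cycle that is also part of the respiratory chain. Sdha had 221 ± 4.26 CPM in KO against 253 ± 3.56 CPM in WT, Sdhc 95.0 ± 1.59 CPM in KO against 107 ± 1.18 CPM in WT, and Sdhd 57.1 ± 1.55 CPM in KO against 67.9 ± 1.64 CPM in WT (n = 3 each; edgeR adjusted p = 0.00119 for Sdha, 0.00331 for Sdhc and 7.63e-04 for Sdhd). Sdhb, the remaining subunit, had 67.4 ± 0.931 CPM in KO against 75.8 ± 2.02 CPM in WT (n = 3 each; edgeR adjusted p = 0.00633). The gene that rose was Pdk4, a kinase that inhibits pyruvate dehydrogenase, 1.41-fold (edgeR adjusted p = 0.0104), named because it was the single rise of its list.

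Of the 6 tested genes of gluconeogenesis and the malic enzymes, which link malate to pyruvate, 3 were called lower and 2 higher. Shares over all genes tested were 10.7% lower and 12.3% higher. The cytosolic malic enzyme Me1 had 31.0 ± 1.65 CPM in KO against 50.3 ± 0.330 CPM in WT, 1.62-fold lower, and the mitochondrial Me2 was 1.22-fold lower at 82.3 ± 4.49 CPM in KO against 101 ± 2.79 CPM in WT. The other mitochondrial form, Me3, was 1.44-fold higher at 6.07 ± 0.167 CPM in KO against 4.21 ± 0.127 CPM in WT, and Fbp2, the muscle fructose bisphosphatase, 2.03-fold higher at 1.48 ± 0.123 CPM in KO against 0.722 ± 0.203 CPM in WT (n = 3 each; edgeR adjusted p = 3.04e-06 for Me1, 5.88e-04 for Me2, 0.00519 for Me3 and 0.0147 for Fbp2). Of 8 pentose phosphate pathway genes, 3 were called lower, namely G6pdx (1.09-fold), Tkt (1.1-fold) and Taldo1 (1.11-fold), and none higher.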

How the data were processed

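Polyadenylated RNA of 3 KO and 3 WT cTEC libraries was compared. Per the submitters' processing notes, the tools were bcl2fastq 2.17, STAR 2.5.1b and RSEM 1.2.28; the steps for each file are not given in the sources used here. The same notes name build GRCh38, which is human, although the files hold mouse Ensembl identifiers, so symbols and positions come from GENCODE M21 (GRCm38), which matched 50376 of 50600 identifiers. The authors deposited raw read counts per gene in 3 strand settings, and the reverse-strand setting was used because it held most counts. Rows naming no gene (unmapped, multimapped, no feature or ambiguous reads), 18.4% to 19.8% of a library, were left out. The authors also deposited RSEM expected counts, which share out multimapping reads, and TPM, which RSEM scales for transcript length.

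Genes passing filterByExpr were tested with edgeR 4.0.16 in R 4.3.3 (TMM, quasi-likelihood F test, genotype only, robust estimation off), with Benjamini-Hochberg adjustment over all genes tested and calls at an adjusted p below 0.05. CPM are scaled by TMM, and errors of log2 fold changes were derived from the F statistic. Gene counts were 34265035 to 39224292 per library, and Slc16a3, Eno2 and Aldoc rest on the fewest reads. Errors are the spread between libraries. Motifs were searched in RefSeq promoter windows. The members, the gene lists and the tests were chosen with earlier results of these data known, so lists are described by counts and medians with no set test. All 41 members are named. Of each further list, up to 4 called genes are named by increasing p, with Pdk4 and Sdhb added after their values were seen, and 1 gene the rule names is not reported here.

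Alternatives were RLE size factors, DESeq2 1.42.0, every gene with any count, only genes averaging 5 CPM or more, rounded expected counts, unstranded counts, limma 3.58.1 on log2(TPM + 1) and log2(TPM + 0.1), a replicate block and leaving out each library; robust dispersion estimates were added after seeing the data. Figures were drawn with matplotlib 3.10.9.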

Additional observations from a re-analysis of the deposited data

How the results depend on the processing

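Of the 23 called members, 9 (Gpi1, Pfkp, Aldoa, Gapdh, Ldhb, Idh2, Suclg1, Suclg2 and Mdh1) were called in the same direction under all 16 alternatives. None of the 23 changed sign, and the count of citric acid cycle genes called higher was 0 throughout. The limma fits of log2(TPM + 1) and log2(TPM + 0.1) called the fewest genes, 1169 and 1119 higher and 758 and 738 lower. Both limma fits called 3 glycolysis genes higher and 5 lower and 3 citric acid cycle genes lower, and both lost the same 11 members (Hk1, Hk2, Tpi1, Pkm, Pfkfb3, Idh3g, Ogdh, Dlst, Fh1, Mdh2 and Idh1); the cause was not tested. A mean of at least 5 CPM left 5 citric acid cycle genes called lower (Idh3g, Ogdh and Fh1 lost) and lost Hk2, and Eno2 was then not tested. Without 1 library, the lower calls over all genes numbered 1152 (without WT replicate C) to 1615, glycolysis genes called higher 2 to 5, glycolysis genes called lower 5 to 8, and citric acid cycle genes called lower 4 (without WT replicate C) to 7, with 1 library fewer behind each fit.

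The labels share the letters A to C between genotypes without saying that a letter pairs samples, and same-letter libraries did not deviate together (correlations of -0.016, 0.082 and -0.034). With the letter as a replicate block, 5 citric acid cycle genes were called lower (Idh3g, Ogdh and Fh1 lost), and Eno1 was gained. RLE size factors lost Ogdh, DESeq2 lost Pgk1, Idh3g and Fh1, and unstranded counts lost Hk2. With no filter on low counts all 23 calls were kept and Eno1, Pdk1 and Pcx were gained. Robust dispersion estimates kept all 23 calls.

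The median log2 fold change of glycolysis was -0.070 with expected counts and -0.054 with both limma fits. That of the citric acid cycle was -0.13 with a mean of at least 5 CPM, -0.12 with both limma fits, and -0.16 to -0.12 without 1 library. The difference between the medians was 0.082 with expected counts. The ratio of the sums, KO minus WT, was -0.079 in TPM and -0.014 in CPM. Signs turned for 6 genes, none of them called under any alternative. Slc2a1 was at -0.0051 with no filter and -0.031 to 0.031 without 1 library, and Pfkm at -0.0045 with no filter and -0.061 to 0.050 without 1 library. Pfkl was at 0.026 in both limma fits and -0.075 to 0.023 without 1 library, and Slc16a3 at -0.27 to 0.21 without 1 library. Ldha was at 0.0067 with a mean of at least 5 CPM and 0.029 in both limma fits. Idh3a was at 0.0043 with that mean, 0.044 and 0.045 in the limma fits, and -0.048 to 0.0039 without 1 library. Slc16a3, with about 2 CPM, and Eno2, with about 4 CPM, are the members limited most by depth.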

Other observations

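Genes that border on the 41 were also described. In the list of glycogen turnover and lateral entry of sugars, 4 of 14 genes were called lower in KO and none higher. Shares over all genes tested were 10.7% lower and 12.3% higher. Of the glycogen phosphorylases, which release glucose 1-phosphate from glycogen, the brain and liver forms fell. Pygb had 386 ± 5.64 CPM in KO against 486 ± 8.06 CPM in WT, and Pygl had 63.5 ± 1.5 CPM in KO against 77.7 ± 2.16 CPM in WT (n = 3 each; edgeR adjusted p = 3.30e-05 for Pygb and 2.42e-04 for Pygl). Pgm1, which turns glucose 1-phosphate into glucose 6-phosphate, was 1.22-fold lower, and Galk1, galactokinase, 1.17-fold lower (edgeR adjusted p = 0.0059 for Pgm1 and 0.0443 for Galk1).

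Of 11 transcription factors and coactivators that regulate these pathways, 2 were called higher and none lower. Such small counts in this list and the next stand beside 12.3% higher and 10.7% lower over all genes tested. Epas1, the hypoxia-inducible factor HIF-2α, had 56.1 ± 3.96 CPM in KO against 28.9 ± 7.85 CPM in WT, and Myc had 114 ± 7.97 CPM in KO against 99.5 ± 1.01 CPM in WT (n = 3 each; edgeR adjusted p = 3.96e-04 for Epas1 and 0.00913 for Myc). Epas1 is also abundant in endothelium and stroma, whose marker sums are given in the report, and their part in its value was not tested. Of 13 hypoxia-induced genes outside glycolysis, 3 were called higher and 2 lower. The mitophagy receptors Bnip3l and Bnip3 were 1.3-fold and 1.22-fold lower, while Egln3, an oxygen-sensing prolyl hydroxylase, and P4ha2, a collagen prolyl hydroxylase, were 1.26-fold and 1.47-fold higher (edgeR adjusted p = 1.12e-04 for Bnip3l, 0.00142 for Bnip3, 0.00259 for Egln3 and 0.0029 for P4ha2).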
